A study of Mus musculus with 4 samples.

Results

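The Zfp36 family comprises 3 of the 31053 genes in the feature table, Zfp36, Zfp36l1 and Zfp36l2, which were taken by symbol from the unique molecular identifier (UMI) counts of all 4 single-cell libraries. The X-linked rodent member Zfp36l3 is listed in the same table with 0 UMIs in every library and was not followed further. The family was picked with results of these libraries in view. The adjusted p-values given for its members come from fits across all genes and describe where the members stood among them, and they are not independent support for the choice.

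Cells positive for eGFP were sorted from the stromal vascular fraction of inguinal white adipose tissue (IWAT) of male ChATBAC-eGFP mice, in which a bacterial artificial chromosome carrying the choline acetyltransferase (ChAT) locus drives the reporter. A sorted cell is thus one in which this transgene was active, and it need not have transcribed the native gene at the time of harvest. All mice entered 30 °C housing at 5 weeks of age and stayed there for 3 weeks. The 30 °C group (2 libraries) then remained at 30 °C, and the 4 °C group (2 libraries) was held at 4 °C for 4 h after a day at room temperature, so the cold challenge and the day at room temperature cannot be told apart. Both groups carried the transgene, live cells were chosen by exclusion of the dye TOPRO3, and each library held cells of 4 pooled mice, so p-values measure the spread between pools and not between single animals.

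ZFP36 proteins are CCCH zinc finger proteins that bind AU-rich elements in the 3′ untranslated regions of messenger RNAs and recruit the CCR4-NOT deadenylase, which shortens the poly(A) tail and leads to decay of the transcript. Zfp36 encodes tristetraprolin, best known for restraining Tnf mRNA in macrophages, and it is an early response gene that inflammatory stimuli induce. Zfp36l1 and Zfp36l2 encode close relatives with roles in lymphocyte development and quiescence, and the kinase MK2, acting downstream of p38, phosphorylates the family and reduces its decay activity.

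In the mm10 build, Zfp36 lies at chr7:28376784-28380253, Zfp36l1 at chr12:80107754-80113013 and Zfp36l2 at chr17:84183931-84187947, each on the minus strand with 2 exons in its longest transcript (GENCODE M21). Each overlaps a gene on the opposite strand. The one opposite Zfp36, Gm44710, had 1 UMI, and the one opposite Zfp36l1, Gm26669, had 10206 UMIs. The one opposite Zfp36l2 was absent from the feature table, so it had no counts to read. Since the strand setting of the counting is not given in the sources used here, reads of Zfp36l1 and of Gm26669 could not be told apart with certainty.

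The core letters of the AU-rich element that the family binds are TATTTAT in DNA letters. The windows below are shown because they hold this heptamer, in capitals, in the members' own transcripts and in some of the listed target transcripts. Apart from Il2 and Pim1, the levels of these targets are described further on. The windows are 30 bases each, 5′ to 3′ on the transcript strand, and lie after the stop codon.
Zfp36: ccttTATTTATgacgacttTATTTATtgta
Zfp36l1: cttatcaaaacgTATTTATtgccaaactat
Zfp36l2: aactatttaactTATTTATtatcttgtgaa
Tnf: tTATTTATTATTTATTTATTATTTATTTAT
Ifng: ccTATTTATtaatatttaaaacTATTTATa
Il2: taaacTATTTATctgaaatTATTTATtata
Ccl4: tattatttctatTATTTATgttttagttat
Ier3: ctaattaaTATTTATgTATTTATgtatatc
Plk3: catTATTTATggaccactttTATTTATtaa
Pim1: ttaatgTATTTATTTATTTATTTATttggt

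These windows come from mm10, with Zfp36 at chr7:28376958-28376987, Zfp36l1 at chr12:80108422-80108451, Zfp36l2 at chr17:84184914-84184943, Tnf at chr17:35199678-35199707 and Plk3 at chr4:117128726-117128755 on the minus strand. Il2 at chr3:37120905-37120934 is also on the minus strand, and Ifng at chr10:118445332-118445361, Ccl4 at chr11:83664541-83664570, Ier3 at chr17:35822484-35822513 and Pim1 at chr17:29495690-29495719 are on the plus strand. The transcripts of all 3 members held the heptamer, each with 3 copies counting overlaps. Among transcripts with a similar length after the stop codon, 19.4% held at least 1 copy for Zfp36, 38.2% for Zfp36l1 and 38.1% for Zfp36l2, and 1.30%, 4.28% and 4.27% held at least as many as the member did. Tnf held 8 copies, a number reached by 0.0848% of transcripts of similar length. Bcl2 and Cxcl2, listed targets that fell in some types described further on, also held the heptamer, and their windows are not shown. They held 2 and 7 copies, numbers reached by 36.7% and 0.210% of transcripts of similar length. The sense strand of 21677 genes was searched, of which 26.7% held the heptamer, against 22 of the 25 listed targets. These were listed as targets of a family that binds this element, so the comparison is no test of the list. The 26.7% was also not matched for length. Among transcripts of similar length to each target, the share with the heptamer ran from 7.07% for Ccl2 to 67.3% for Bcl2. A match describes the letters only.

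The 4 libraries held 26654 cells as deposited and between 76058112 and 84468931 UMIs each. After filtering, 21253 cells were kept, with a median of 7520 to 8068 UMIs per cell, and 19867 of them (93.5%) met the marker rule of 1 of 12 cell types. A further 1137 cells met the rules of several lineages and were set aside together with 249 that met none, and no doublet caller was run. Pairs of libraries shared 10 to 18 barcodes. The summed level of each marker list was then read in each type. The same lists had set the gates, so these sums describe the types and are no independent check of them. The 6 B-cell markers summed to 53.6 to 79.8 CPM (UMIs rescaled so that each sum has the same total) in macrophages and to 5957 to 6855 CPM in B cells, and the 7 macrophage markers to 13.2 to 22.2 CPM in B cells and to 21118 to 22825 CPM in macrophages. The B-cell list was higher in γδT cells, at 130 to 187 CPM, and in stromal cells, at 711 to 845 CPM. Of the 1300 cells counted as ILC2-like, after group 2 innate lymphoid cells, 878 also met the T-cell rule, and the class held T-cell markers at 1291 to 1726 CPM, against 6576 to 7658 CPM in αβT cells without Foxp3. Cycling cells were not taken out of this class, and its cycling markers summed to 868 to 1540 CPM.

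Levels across cell types were described first, as CPM in the summed UMIs of each library and type. A UMI marks 1 captured molecule near the 3′ end and is not scaled by transcript length. The position of 1 member across cell types can thus be read, but only as a share of each type's UMIs. A higher CPM of 1 member than of another need not mean more transcript. Median depth ran from 5707 UMIs per cell in Foxp3+ T cells to 26059 in plasma cells, so UMIs per cell can be ordered otherwise. At 30 °C cycling T cells held 11.5 and 11.3 Zfp36l2 UMIs per cell, against 10.7 and 10.7 in ILC2-like cells, which led by CPM.

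Zfp36 was highest in macrophages, at 1516 and 1893 CPM in the 30 °C libraries and 2221 and 2324 CPM in the 4 °C libraries. Mature dendritic cells (DCs) followed at 30 °C with 727 and 737 CPM, overlapping lymphatic endothelial cells at 599 and 754 CPM. ILC2-like and γδT cells overlapped each other next, with means of 457 and 458 CPM. Stromal cells, Foxp3+ T cells and αβT cells without a Foxp3 UMI formed an overlapping run with means of 271 to 230 CPM, in that order. B cells, cycling T cells and plasma cells overlapped in turn between 169 and 162 CPM, and cycling B cells were lowest at 78.1 and 93.1 CPM. The mean in the highest type was 19.9 times that in the lowest at 30 °C and 20.6 times at 4 °C.

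Zfp36l1 had the narrowest span, with the highest type at 8.40 times the lowest at 30 °C and 7.09 times at 4 °C. Macrophages (1333 and 1554 CPM) and mature DCs (1158 and 1181 CPM) stood above all other types at 30 °C, without overlap between them. At 4 °C their order changed, with mature DCs at 1404 and 1677 CPM and macrophages at 1081 and 1131 CPM. Foxp3+ T, γδT, ILC2-like, stromal and αβT cells followed at 30 °C with means of 608 to 502 CPM, each overlapping the next, and plasma cells and cycling T cells were lowest at 187 and 172 CPM.

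By CPM, Zfp36l2 was highest in ILC2-like and αβT cells at 30 °C, and its order was rearranged at 4 °C. ILC2-like cells led at 30 °C, at 1181 and 1256 CPM, followed without overlap by αβT cells at 1070 and 1102 CPM. Macrophages and Foxp3+ T cells came next, with overlapping values and means of 901 and 897 CPM. Most ILC2-like cells also met the T-cell rule, and this order was not read with them counted as T cells. Mature DCs were lowest at 60.1 and 69.3 CPM, from only 58 and 36 UMIs. At 4 °C macrophages were highest at 1012 and 1020 CPM, ILC2-like cells came next at 772 and 781 CPM, and B cells, cycling B cells and plasma cells fell to between 63.6 and 88.9 CPM. The highest type stood 18.8 times above the lowest at 30 °C and 32.0 times at 4 °C.

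**Figure D1:**
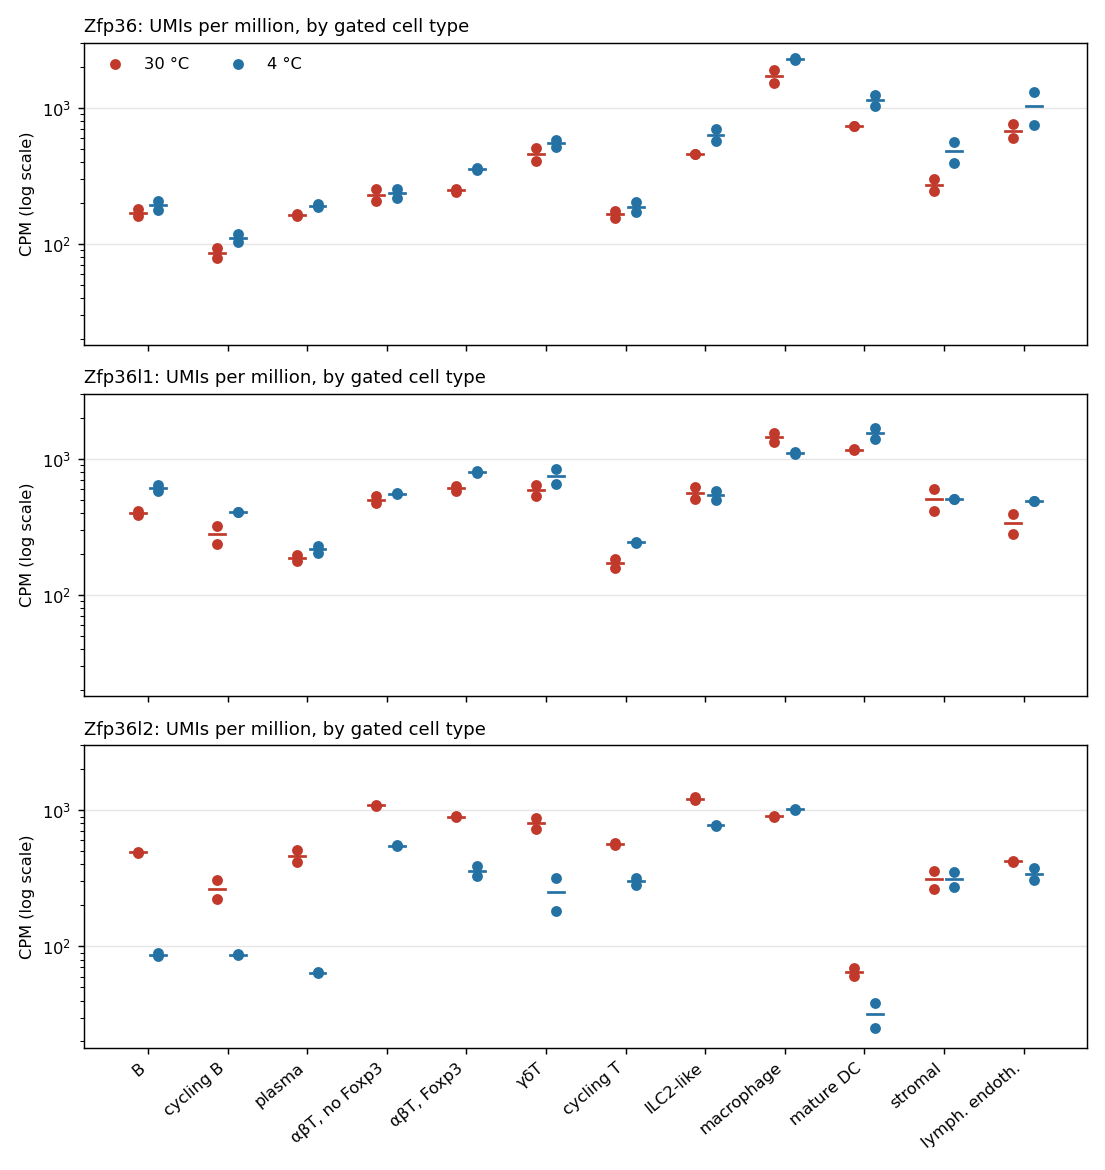
CPM of each member (log axis) in 12 gated cell types, with 1 point per library, red for 30 °C and blue for 4 °C, and a bar at the mean of 2 libraries. Zfp36l2 drops from about 490 to 87.1 CPM in B cells while macrophages stay near 901 to 1016 CPM, and Zfp36 peaks in macrophages at both temperatures.

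The effect of cold on each member within each cell type was then tested by edgeR's quasi-likelihood test on sums per library, in the 9 types with at least 20 cells in every library, with Benjamini-Hochberg adjusted p-values over every gene tested. Of the 27 member tests, Zfp36l2 was lower at 4 °C in 6 types and not past the threshold of 0.05 in 3, Zfp36 was higher in 4 and not past it in 5, and Zfp36l1 was higher in 3, lower in 1 and not past it in 5. The share of all genes lower at 4 °C, against which the counts of falls stand, was 6.87% in B cells, 0.212% in cycling B cells, 1.78% in αβT cells without Foxp3, 2.69% in Foxp3+ T cells, 3.08% in cycling T cells, 3.53% in ILC2-like cells, 8.24% in macrophages and 0.417% in mature DCs. The share in either direction, against which these counts stand, was 12.9% in B cells, 0.29% in cycling B cells, 0% in plasma cells, 2.68% in αβT cells without Foxp3, 5.11% in Foxp3+ T cells, 5.66% in cycling T cells, 5.85% in ILC2-like cells, 17% in macrophages and 1.41% in mature DCs.

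Zfp36l2 fell most clearly in B cells. The 30 °C libraries held 492 and 488 CPM and the 4 °C libraries 85.3 and 88.9 CPM, a mean 5.63 times lower. Both cold libraries lay far below both warm ones, and the gap exceeded the spread within either group by a wide margin. The log2 fold change was -2.60 ± 0.05 (SE, n = 2 libraries per group, adjusted p = 1.0e-09). Here and for the other fold changes and their differences, the SE was derived from the test's F statistic and is not the spread of 2 libraries. Zfp36l2 ranked 1 by p-value and 11 by size of change among 11503 genes tested in B cells. The share of B cells with at least 1 Zfp36l2 UMI was 91.1% ± 0.20 (SD, n = 2) at 30 °C and 46.4% ± 0.83 at 4 °C. With every cell thinned to 3000 UMIs it was 71.0% ± 0.69 and 23.7% ± 0.13. A 2-sided exact permutation test over 2 against 2 libraries cannot go below 0.33, which both comparisons reached. For reference, 44.8% of mature DCs, the type with the lowest level, had a Zfp36l2 UMI at 30 °C at a greater depth per cell (20.7% when thinned).

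The same direction was seen in the other B-lineage types. Cycling B cells went from 307 and 224 CPM to 88.3 and 85.7 CPM, with a log2 fold change of -1.71 ± 0.18 (adjusted p = 0.00526). Plasma cells, which secrete antibody, showed values of 509 and 418 CPM at 30 °C against 63.6 and 64.9 CPM at 4 °C, without overlap. The log2 fold change of -2.87 ± 0.30 in plasma cells did not pass the threshold (adjusted p = 0.222), although Zfp36l2 ranked 2 by p-value of 9021 genes. No gene was called in plasma cells by edgeR, where 307 genes had an unadjusted p under 0.05 and DESeq2 called 25. The Zfp36l2 value passed the threshold under DESeq2 and in edgeR without a filter on low counts (adjusted p = 1.5e-16 and 7.2e-28) and without 30 °C library 1 or 30 °C library 2 (log2 fold change -2.44 and -3.20).

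T cells and ILC2-like cells also held less Zfp36l2 at 4 °C, by smaller factors. In αβT cells without Foxp3 it was 1070 and 1102 CPM at 30 °C against 548 and 553 CPM at 4 °C, and the log2 fold change was -1.04 ± 0.05 (adjusted p = 5.1e-05). In Foxp3+ T cells, a marker of regulatory T cells, it was 907 and 887 against 389 and 329 CPM, with a log2 fold change of -1.36 ± 0.07 (adjusted p = 3.9e-07). Within each of these types the groups were well apart, with ranks by p-value of 3 of 10759 genes and 7 of 10314 genes. Cycling T cells held 578 and 555 CPM at 30 °C against 320 and 282 CPM at 4 °C (log2 fold change -0.997 ± 0.087, adjusted p = 2.2e-05). ILC2-like cells held 1256 and 1181 against 781 and 772 CPM, the smallest of the called falls (log2 fold change -0.71 ± 0.07, adjusted p = 7.2e-05). The 6 calls of Zfp36l2, those in B and cycling B cells included, held without any single library. γδT cells, not tested because 1 library at 4 °C held 19 of them, had 731 and 884 CPM at 30 °C against 319 and 181 CPM at 4 °C.

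Macrophages and mature DCs did not pass the threshold for Zfp36l2. In macrophages the 30 °C libraries held 892 and 910 CPM and the 4 °C libraries 1012 and 1020 CPM. The groups did not overlap, but the log2 fold change was only 0.13 ± 0.09 (adjusted p = 0.398). Macrophages with Mrc1 and Folr2 UMIs, markers of resident macrophages, gave 0.23 ± 0.10 (adjusted p = 0.153). The other macrophages, without UMIs of both genes, 33 to 98 cells per library and not tested, held Zfp36l2 at 955 and 789 CPM in the warm libraries and 793 and 609 CPM in the cold ones, so their means went the other way with the groups overlapping. Mature DCs held 69.3 and 60.1 CPM at 30 °C against 25.1 and 38.5 CPM at 4 °C, from 32 to 58 UMIs per library (log2 fold change -1.07 ± 0.26, adjusted p = 0.0773), and this value passed the threshold without a filter on low counts (adjusted p = 0.00569), when cells with 5000 genes or more were kept (0.0249), under the stricter gate (0.0231) and without 30 °C library 2 (0.00323). Stromal cells held 360 and 263 against 271 and 354 CPM and lymphatic endothelial cells 424 and 418 against 379 and 306 CPM, from 41 to 164 UMIs per library and without a test.

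**Figure D2:**
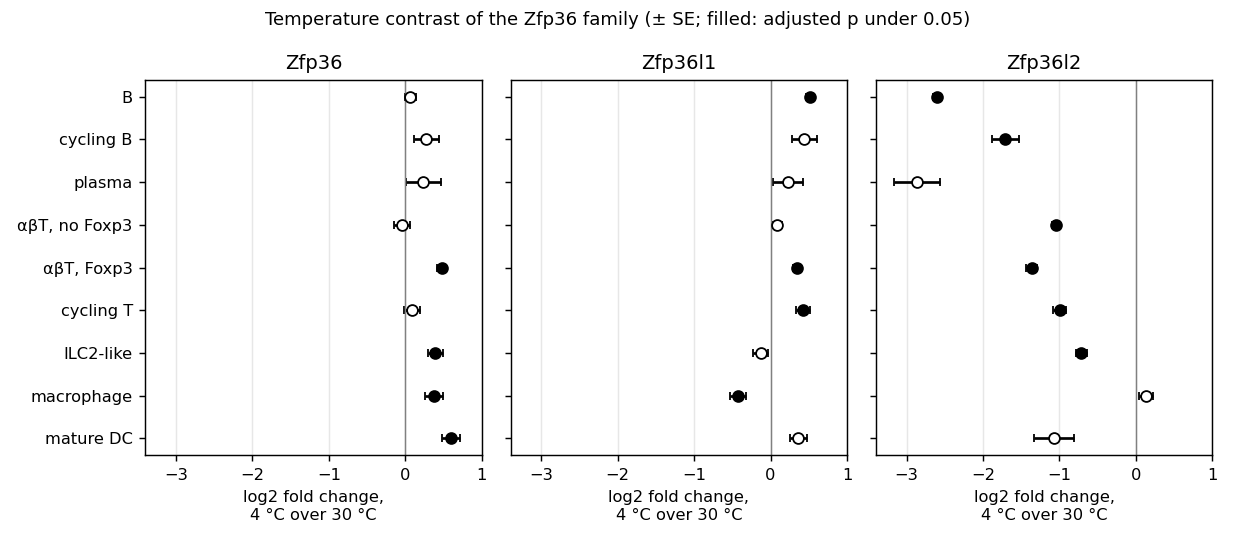
Log2 fold change of each member at 4 °C over 30 °C in 9 tested cell types, with bars of ± SE and filled points where the adjusted p was under 0.05. Zfp36l2 runs from -2.87 in plasma cells to 0.13 in macrophages, while the Zfp36 and Zfp36l1 values all lie between -0.43 and 0.59.

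Whether these changes differed between cell types was tested as the interaction of both terms in 1 model with a term for each library. In 5 pairs of types, 10 of the 15 member tests passed the threshold. For Zfp36l2 the change in macrophages exceeded that in B cells by 2.76 ± 0.12 on the log2 scale (adjusted p = 4.4e-13) and that in αβT cells without Foxp3 by 1.20 ± 0.13 (adjusted p = 4.2e-09). The share of all genes past the threshold was 7.04% and 7.48% in these comparisons. The fall in B cells was larger than in αβT cells, with a difference of -1.56 ± 0.06 (adjusted p = 3.5e-13), where 2.03% of genes passed. The difference between ILC2-like and αβT cells, 0.35 ± 0.08, missed the threshold (adjusted p = 0.0512), where 0.516% of genes passed it. It passed without 30 °C library 1 (0.40), without 4 °C library 1 (0.33) and without 4 °C library 2 (0.34).

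Zfp36l1, by contrast, was higher at 4 °C in B cells and lower in macrophages. B cells held 385 and 415 CPM at 30 °C against 585 and 647 CPM at 4 °C, without overlap (log2 fold change 0.51 ± 0.05, adjusted p = 0.000220). The share of B cells with a Zfp36l1 UMI went from 84.7% ± 0.52 to 94.3% ± 1.05. Foxp3+ T cells showed 586 and 631 against 782 and 817 CPM (log2 fold change 0.35 ± 0.05, adjusted p = 0.00201), and cycling T cells 159 and 185 against 247 and 242 CPM (log2 fold change 0.42 ± 0.09, adjusted p = 0.0150). The cycling T-cell call was lost without 30 °C library 1 (adjusted p = 0.184), without 4 °C library 1 (0.0606) and when cells with 5000 genes or more were kept (0.0540). In B cells and Foxp3+ T cells the opposite-strand gene Gm26669 also differed, at 39.8 and 52.7 against 65.4 and 78.0 CPM and at 60.9 and 73.3 against 77.4 and 92.8 CPM, and its part in the Zfp36l1 values was not tested.

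Macrophages held Zfp36l1 at 1333 and 1554 CPM at 30 °C against 1131 and 1081 CPM at 4 °C (log2 fold change -0.43 ± 0.11, adjusted p = 0.0170). Gm26669 in macrophages was 37.8 and 63.2 CPM at 30 °C against 34.2 and 17.9 CPM at 4 °C. The Zfp36l1 call was lost without 30 °C library 2 (adjusted p = 0.0723), without 4 °C library 1 (0.109) and without 4 °C library 2 (0.130), with the direction kept in each case. It held in macrophages with Mrc1 and Folr2 UMIs (log2 fold change -0.37 ± 0.11, adjusted p = 0.0234). The interaction for Zfp36l1 was -0.91 ± 0.12 for macrophages against B cells (adjusted p = 1.7e-05), so the change in the 2 types differed by more than the spread between libraries. Against αβT cells without Foxp3, macrophages differed by -0.49 ± 0.13 (adjusted p = 0.00894), which was lost without 30 °C library 2 (0.0744) or 4 °C library 2 (0.0961). In αβT cells themselves, values of 472 and 531 against 558 and 555 CPM did not pass the threshold (adjusted p = 0.519).

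Zfp36 moved upward where it was called. Foxp3+ T cells held 241 and 253 CPM at 30 °C against 359 and 350 CPM at 4 °C (log2 fold change 0.48 ± 0.06, adjusted p = 0.000596). That call held without any single library. Mature DCs held 737 and 727 against 1234 and 1031 CPM (log2 fold change 0.59 ± 0.12, adjusted p = 0.0348), ILC2-like cells 455 and 459 against 564 and 697 CPM (0.40 ± 0.10, adjusted p = 0.0341) and macrophages 1516 and 1893 against 2221 and 2324 CPM (0.37 ± 0.12, adjusted p = 0.0494). The groups did not overlap in any of these, but each of these 3 calls depended on single libraries. The DC call was lost without 4 °C library 1 (adjusted p = 0.401) or 4 °C library 2 (0.0754). The ILC2-like call was lost without 30 °C library 1 (0.125), 30 °C library 2 (0.0859) or 4 °C library 2 (0.173), and when cells that met both rules were counted as T cells (0.0861). The macrophage call was lost without 30 °C library 1 (0.197), 4 °C library 1 (0.160) or 4 °C library 2 (0.244), with the stricter gate (0.154) and when cells with 5000 genes or more were kept (0.0720), and it held in macrophages with Mrc1 and Folr2 UMIs (0.43 ± 0.11, adjusted p = 0.0134).

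B cells and αβT cells without Foxp3 did not pass the threshold for Zfp36, with 158 and 180 against 177 and 205 CPM and with 207 and 252 against 251 and 217 CPM. The groups overlapped in both. The difference between Foxp3+ and Foxp3-negative T cells was 0.52 ± 0.08 on the log2 scale (adjusted p = 0.00408), where 0.418% of genes passed, and it was lost without 30 °C library 2 (adjusted p = 0.134). Between the same cells Zfp36l1 differed by 0.27 ± 0.05 (adjusted p = 0.0240) and Zfp36l2 by -0.32 ± 0.06 (adjusted p = 0.0221). The Zfp36l1 and Zfp36l2 differences were each lost without 30 °C library 1 (adjusted p = 0.0873 and 0.330), 30 °C library 2 (0.337 and 0.0988) or 4 °C library 2 (0.0674 and 0.0931).

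The makeup of the family followed from these changes. In B cells Zfp36l2 supplied 46.3% ± 1.74 (SD, n = 2) of the family's UMIs at 30 °C and 9.75% ± 0.44 at 4 °C, and Zfp36l1 37.7% ± 0.80 and 68.9% ± 0.18. The ratio of Zfp36l1 to Zfp36l2 UMIs was 0.783 and 0.851 in the warm B-cell libraries and 6.86 and 7.28 in the cold ones. In αβT cells without Foxp3 it went from 0.441 and 0.482 to 1.02 and 1.00, and in Foxp3+ T cells from 0.646 and 0.711 to 2.01 and 2.49. In macrophages it went the other way, from 1.49 and 1.71 to 1.12 and 1.06. The 4 °C and 30 °C libraries did not overlap for this ratio in any of the 9 tested types, and each exact permutation p was 0.33, the smallest that 2 against 2 libraries allow.

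The summed level of the 3 members was less uneven. In B cells it was 1035 and 1084 CPM at 30 °C against 847 and 941 CPM at 4 °C, in αβT cells without Foxp3 1749 and 1886 against 1357 and 1325 CPM, and in plasma cells 850 and 776 against 453 and 492 CPM. Both cold values were below both warm ones in each. The same held in Foxp3+ T cells, at 1734 and 1771 against 1530 and 1495 CPM. It also held in cycling T cells (893 and 915 against 770 and 695 CPM) and ILC2-like cells (2333 and 2148 against 1845 and 2051 CPM). Macrophages held 3742 and 4357 CPM at 30 °C against 4364 and 4424 CPM at 4 °C, and mature DCs 1987 and 1945 against 2936 and 2474 CPM, with the cold libraries above the warm ones. Macrophages without UMIs of both Mrc1 and Folr2 went the other way, at 3700 and 4089 against 3539 and 3552 CPM. In lymphatic endothelial cells the cold libraries were above the warm ones, at 1304 and 1562 against 1619 and 2100 CPM. Cycling B cells overlapped, at 722 and 540 against 611 and 597 CPM, as did γδT and stromal cells. These sums were not tested.

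**Figure D3:**
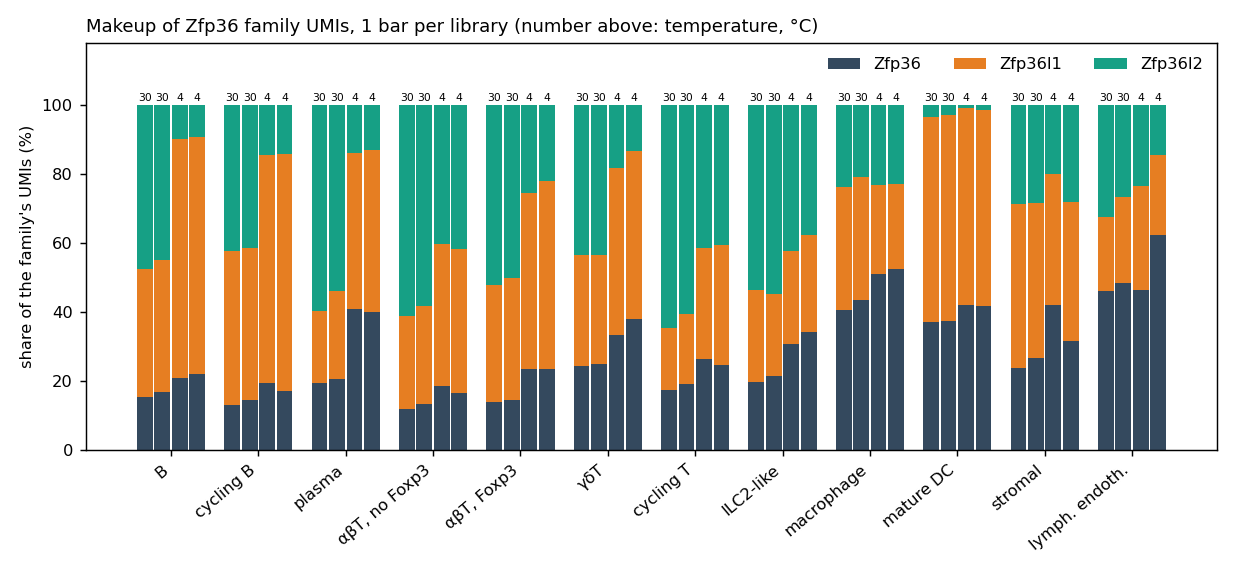
Share of the family's UMIs (percent) that each member supplied, 1 stacked bar per library in 12 cell types, with the temperature above each bar. Zfp36l2 shrinks from 46.3% to 9.75% in B cells and from 51.2% to 23.7% in Foxp3+ T cells, and stays at 22.4% and 23.1% in macrophages.

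The genes closest to each member were sought by Pearson correlation of log2 CPM over 48 sums (12 types in 4 libraries) among 5773 genes, as a description, since the sums share libraries and depths. Zfp36 was most like Neat1 (r = 0.88), Klf6 (0.87), Rtn4 (0.87), Plekhm2 (0.86) and Arl8a (0.85). Zfp36l1 was most like Sgpl1 (0.83), Rassf2 (0.81), Fbxl5 (0.80), Slc6a6 (0.79) and Grk3 (0.78). Zfp36l2 had weaker partners beyond Tmem50a (0.80), namely Ssh2 (0.71), Klf13 (0.70), Cpt1a (0.69) and Rbfa (0.69). Among the members, Zfp36 and Zfp36l1 had r = 0.66, whereas Zfp36l2 had -0.01 with Zfp36 and -0.25 with Zfp36l1.

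The decay machinery that the family recruits was given by fixed lists. Of 19 listed deadenylation genes, which include the CCR4-NOT and PAN2-PAN3 subunits and the TOB and BTG adaptors, all were tested in each of the 9 types. In B cells and in Foxp3+ T cells 1 was higher and 1 lower, where 12.9% and 5.11% of all genes passed, in cycling T cells and in ILC2-like cells 1 was higher (5.66% and 5.85%), and in macrophages 1 was lower (17%). In the other types 0 passed by edgeR's test. Tob2, an adaptor of the deadenylase, was higher at 4 °C in B cells (log2 fold change 0.32), Foxp3+ T cells (0.70), cycling T cells (0.48) and ILC2-like cells (0.67). Cnot6l, a catalytic deadenylase subunit, fell by 0.59 on the log2 scale in macrophages (180 and 170 against 122 and 116 CPM). Of the 9 listed decapping and 5′ to 3′ decay genes, 1 passed, Dcp2 in B cells (-0.30), and of the 13 listed exosome genes, 9 to 12 could be tested and 0 passed in any type by edgeR's test.

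Of the 10 listed genes of the p38 arm that controls the family, 9 were tested in macrophages, with 2 higher and 1 lower, where 17% of all genes passed in either direction. Mapk14, encoding p38α, held 76.9 and 93.6 CPM at 30 °C against 149 and 153 CPM at 4 °C (log2 fold change 0.77 ± 0.13, adjusted p = 0.00171). Mapkapk2, encoding the kinase MK2, held 93.9 and 99.9 against 210 and 198 CPM (1.03 ± 0.11, adjusted p = 8.8e-05). Dusp1, a phosphatase that inactivates p38, fell by 0.70 on the log2 scale, from 3815 and 4156 to 2432 and 2618 CPM. In B cells, 1 was higher and 1 lower of 10, Dusp1 among them at -0.88, where 12.9% of all genes passed. In αβT cells without Foxp3, 0 were higher and 1 lower of 10 (2.68%), and in Foxp3+ T cells 1 and 0 of 10 (5.11%). In the remaining types none passed by edgeR's test.

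Transcripts listed as targets of the family, a list drawn up with earlier results of these data known, were more often higher than lower at 4 °C where they were called. In Foxp3+ T cells 7 of 16 tested were higher and 0 lower, in cycling T cells 9 of 17 and 0, in mature DCs 5 of 10 and 0, in αβT cells without Foxp3 6 of 17 and 1, in ILC2-like cells 5 of 13 and 1, in B cells 5 of 15 and 1, and in macrophages 8 of 19 and 2. None of 9 in cycling B cells or of 10 in plasma cells passed by edgeR's test. The share of all genes called higher was 2.42% in Foxp3+ T cells, 2.58% in cycling T cells, 0.991% in mature DCs, 0.902% in αβT cells, 2.32% in ILC2-like cells, 6.01% in B cells and 8.8% in macrophages. The median log2 fold change of the tested targets was 0.05 in B cells, 0.24 in cycling B cells, -0.23 in plasma cells, 0.19 in αβT cells, 0.40 in Foxp3+ T cells, 0.68 in cycling T cells, 0.45 in ILC2-like cells, 0.54 in macrophages and 1.12 in mature DCs, beside medians of -0.01 to 0.0014 over all genes tested in these types.

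Tnf, the cytokine whose repeated heptamers are shown above, was higher in 6 types. In ILC2-like cells Tnf was 177 and 168 CPM at 30 °C against 342 and 351 CPM at 4 °C (log2 fold change 0.94 ± 0.09, adjusted p = 5.9e-05). In Foxp3+ T cells it was 29.5 and 30.6 against 68.7 and 61.1 CPM (1.07 ± 0.11, adjusted p = 0.000148). Macrophages held Tnf at 32.8 and 36.8 against 73.5 and 50.9 CPM (0.85 ± 0.20, adjusted p = 0.0111), and B cells at 5.0 and 6.2 against 10.7 and 8.7 CPM (0.68 ± 0.16, adjusted p = 0.0178). The groups did not overlap in any of these 4 types.

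Other targets were called in fewer types. Ifng, encoding interferon-γ, held 19.0 and 19.6 CPM at 30 °C against 70.7 and 77.0 CPM at 4 °C in αβT cells without Foxp3 (log2 fold change 1.87 ± 0.10, adjusted p = 9.6e-05). In ILC2-like cells Ifng had 0 UMIs in both warm libraries and 18 and 11 UMIs in the cold ones, and no fold is given. Plk3, a stress-responsive kinase gene, was higher in αβT cells without Foxp3, Foxp3+ T cells, cycling T cells and ILC2-like cells, the last at 14.5 and 12.4 against 33.8 and 35.3 CPM (1.29 ± 0.19, adjusted p = 0.00162). Ier3, an immediate early survival gene, was 2.8 and 4.1 against 10.2 and 12.9 CPM in ILC2-like cells (1.61 ± 0.34, adjusted p = 0.0167), and was also higher in macrophages (0.71) and mature DCs (1.34). The chemokine gene Ccl4 in B cells went from 0.26 and 1.27 to 4.56 and 9.45 CPM, from 5 and 23 to 74 and 200 UMIs (3.13 ± 0.49, adjusted p = 0.00211). The Ccl4 and Tnf levels in B cells were below the 13.2 to 22.2 CPM to which the 7 macrophage markers summed there. Carry-over of RNA from other cells was not tested.

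Some listed targets fell. Bcl2, an anti-apoptotic gene, was lower in ILC2-like cells (156 and 145 against 56.5 and 69.4 CPM, log2 fold change -1.34 ± 0.12, adjusted p = 4.1e-05) and in B cells (205 and 187 against 151 and 146 CPM, -0.51 ± 0.06, adjusted p = 0.000410). In macrophages Bcl2 was higher, at 11.98 and 9.19 against 27.3 and 25.5 CPM (1.29 ± 0.26, adjusted p = 0.00470). The neutrophil chemokine gene Cxcl2 fell in macrophages from 1110 and 978 to 523 and 689 CPM (-0.83 ± 0.13, adjusted p = 0.00115). Ccl2, a monocyte chemokine gene whose listed transcript held 0 heptamers, rose in macrophages from 142 and 206 to 538 and 519.5 CPM (1.55 ± 0.15, adjusted p = 3.3e-05). In mature DCs the inflammatory cytokine gene Il1b rose from 11.9 and 11.7 to 99.0 and 123 CPM (3.19 ± 0.28, adjusted p = 0.000402).

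**Figure D4:**
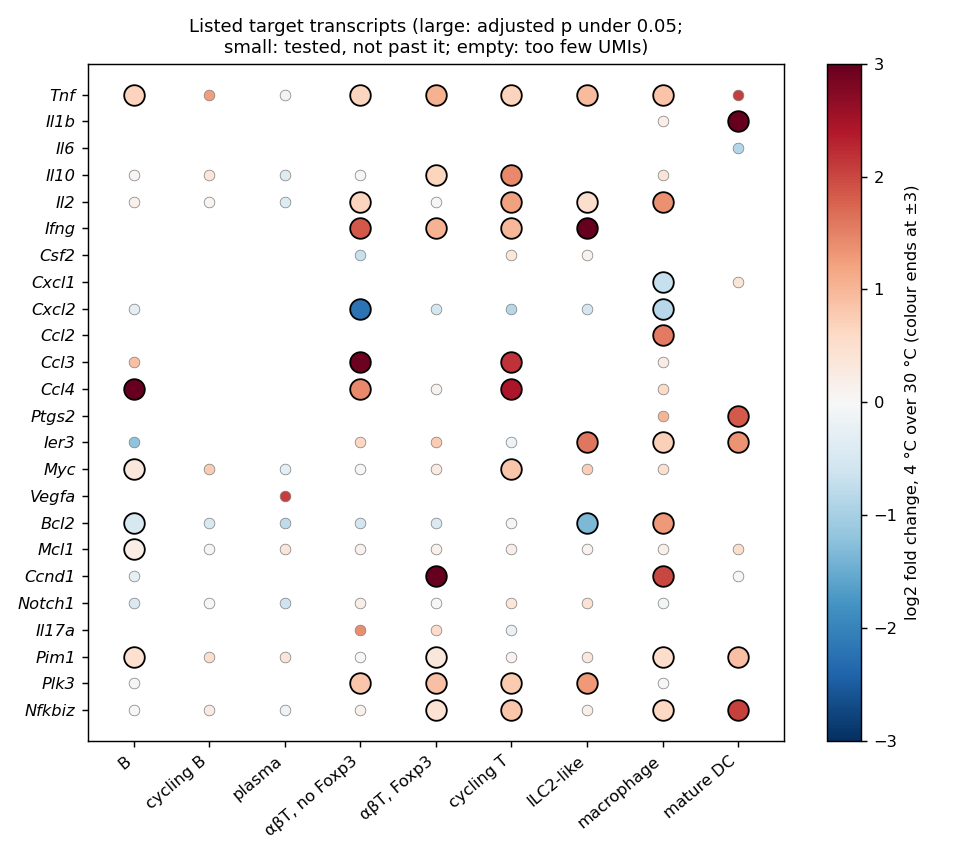
Log2 fold change at 4 °C over 30 °C (colour, ends at -3 and 3) of listed target transcripts in 9 cell types, with large points where the adjusted p was under 0.05 and small points where it was not. Tnf is called in 6 types, Bcl2 is blue in B and ILC2-like cells and red in macrophages, and the dark point of Ifng in ILC2-like cells stands against 0 UMIs at 30 °C.

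Lists of other programmes were read in the same fits. Of the glucocorticoid-responsive genes, none was called higher in any type by edgeR's test. Those called lower were 6 of 10 tested in B cells (6.87% of all genes were called lower), 1 of 6 in cycling B cells (0.212%), 6 of 10 in αβT cells without Foxp3 (1.78%), 6 of 9 in Foxp3+ T cells (2.69%), 6 of 10 in cycling T cells (3.08%), 5 of 8 in ILC2-like cells (3.53%), 10 of 11 in macrophages (8.24%) and 4 of 10 in mature DCs (0.417%). In plasma cells 0 of 8 passed, with a median log2 fold change of -1.86, beside medians of -1.12 in B cells, -1.06 in αβT cells without Foxp3 and -2.57 in macrophages. Fkbp5, a glucocorticoid receptor co-chaperone gene, held 69.5 and 64.4 against 8.1 and 8.1 CPM in B cells (-3.15 ± 0.08, adjusted p = 9.3e-09), and Tsc22d3, encoding GILZ, 1210 and 1045 against 197 and 195 CPM in macrophages (-2.57 ± 0.11, adjusted p = 5.9e-08).

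Immediate early and stress genes, which tissue digestion can also induce, were called in part. In Foxp3+ T cells 9 of 19 were higher and 1 lower, where 2.42% of all genes were called higher and 2.69% lower. In macrophages 5 of 20 were higher and 1 lower (8.8% and 8.24%), and in B cells 4 and 2 of 20 (6.01% and 6.87%), among them Egr3 in B cells at 45.9 and 46.3 against 108 and 111 CPM. The part of the glucocorticoid-responsive or immediate early genes in the changes of the family was not tested.

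Other RNA-binding proteins that act on related transcripts were listed as well. Of these 13, 1 was higher and 1 lower in B cells and in Foxp3+ T cells, where 12.9% and 5.11% of all genes passed in either direction, 0 and 1 in αβT cells without Foxp3 (2.68%), and 2 and 1 in macrophages (17%), and in the other 5 types 0 passed by edgeR's test. Elavl1, encoding HuR, which stabilises AU-rich transcripts, was higher in B cells (log2 fold change 0.25), Foxp3+ T cells (0.33) and macrophages (0.56). N4bp1, encoding an RNA-degrading regulator of cytokine responses, was lower in B cells (-0.84), αβT cells without Foxp3 (-0.80), Foxp3+ T cells (-0.58) and macrophages (-0.76).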

How the data were processed

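UMI counts per gene and cell, as deposited by the authors for 4 libraries, were made with Cell Ranger on mm10 (3.0.0 in the matrix headers and the paper's methods, 3.1.0 in the submitters' notes) and were not normalized. The strand setting is not given in the sources used here. Cells were kept with at least 100 genes, with over 200 but under 5000 of the genes found in 10 or more cells of a library, and with under 7.5% mitochondrial counts. Each cell was assigned by marker UMIs, and cells of several lineages were set aside as possible doublets. Cells thinned for shares held at least 3000 UMIs.

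Sums per library and type were tested with edgeR 4.0.16 (TMM, filterByExpr, quasi-likelihood, Benjamini-Hochberg over all genes tested, threshold 0.05) under R 4.3.3, and shares and ratios by exact 2-sided permutation with scipy 1.17.1. The Wilcoxon test over cells of the study's methods was not used, since cells of 1 library are not replicates. DESeq2 1.42.0, other filters, gates, weights and left-out libraries were alternatives. The scripts were tested on simulated data. The members and lists were chosen with earlier results of these data known. Named list genes were up to 4 of the largest changes per list past the threshold and in the same direction in all comparisons of libraries, and up to 2 by role. Further list genes, and Bcl2, Tnf and Dusp1 across types, were named after their values were seen. Heptamers were read from GENCODE M21 transcripts, with lengths within 20% called similar.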

Additional observations from a re-analysis of the deposited data

Results flagged for a closer look

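The response to 4 °C differed between cell types for 10 of the 15 member comparisons. The test was the interaction test in edgeR with Benjamini-Hochberg adjustment over all genes. The share of all genes past the threshold was 7.04% for macrophages minus B cells and 7.48% for macrophages minus αβT cells without Foxp3. It was 2.03% for B cells minus αβT cells, 0.418% for Foxp3+ minus Foxp3-negative T cells and 0.516% for ILC2-like minus αβT cells. The family was picked with results of these libraries in view. For Zfp36l2 the log2 fold change of macrophages minus that of B cells was 2.76, of macrophages minus αβT cells without Foxp3 1.20, of B cells minus αβT cells -1.56 and of Foxp3+ minus Foxp3-negative T cells -0.32. The first 3 held without any single library.

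For Zfp36l1 the corresponding differences were -0.91 for macrophages minus B cells, -0.49 for macrophages minus αβT cells, 0.42 for B cells minus αβT cells (adjusted p = 0.000390) and 0.27 for Foxp3+ minus Foxp3-negative T cells. The first and the third held without any single library.

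For Zfp36 they were 0.43 for macrophages minus αβT cells (adjusted p = 0.0303), lost without 30 °C library 1 (adjusted p = 0.129) or 4 °C library 2 (0.407), and 0.52 for Foxp3+ minus Foxp3-negative T cells.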

How the results depend on the processing

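The 6 called falls of Zfp36l2, the rises of Zfp36l1 in B and Foxp3+ T cells and the rise of Zfp36 in Foxp3+ T cells kept their direction under every alternative. They also kept their side of the threshold under every alternative that gave a p-value, which weighting each cell alike did not. The other called changes lost the threshold in at least 1. The cause of the changes below was not tested.

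Without an upper limit on genes per cell, the log2 fold change of Zfp36 was -0.21 in cycling T cells, 0.32 in macrophages and -0.12 in plasma cells, of Zfp36l1 0.28 in cycling T cells and of Zfp36l2 -1.22 in mature DCs. Under the stricter gate Zfp36 was 0.0061 in αβT cells without Foxp3 and 0.33 in macrophages, and Zfp36l2 -1.29 in mature DCs. With cells of both rules counted as T cells, an alternative chosen after seeing the data, Zfp36 was 0.36 in ILC2-like, 0.13 in αβT and 0.32 in cycling T cells (0.094 before), and Zfp36l1 was -0.25 in ILC2-like cells (-0.13 before), the last 2 not past the threshold either way. With each cell weighted alike, Zfp36l1 was 0.65 in B cells and 0.18 in αβT cells, and Zfp36l2 was -2.50 in B cells, -0.64 in ILC2-like cells and -0.98 in αβT cells. Without a filter on low counts, Zfp36l1 in mature DCs (0.42) and Zfp36l2 in mature DCs (-1.02) and plasma cells (-2.88) passed, as did Zfp36l1 in mature DCs (0.38) and Zfp36l2 in plasma cells (-2.86) by DESeq2. Thinning turned the sign of 3 differences in the share of cells with a UMI. For Zfp36 the difference went from 8.80 to -1.96 points in cycling B cells and from -4.30 to 7.33 points in plasma cells. For Zfp36l2 in macrophages it went from -5.03 to 2.28 points. Before thinning, the groups overlapped in plasma cells only, and after it in cycling B cells only.

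Libraries of the 2 groups shared only a replicate number, with correlations of their deviations from -0.22 to 0.24. With the number as a replicate block, Zfp36l1 in cycling B cells (0.46) and Zfp36l2 in plasma cells (-2.82) passed the threshold and no other call of a member changed. The block moved the count of genes called from 26 to 229 in cycling B cells, 0 to 57 in plasma cells, 288 to 616 in αβT cells without Foxp3, 527 to 1052 in Foxp3+ T cells and 579 to 1175 in cycling T cells. A crossed pairing in mature DCs, chosen after seeing the data, gave -1.05 for Zfp36l2 and 186 calls against 98.

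DESeq2 called 719 genes against 1481 in B cells, 25 against 0 in plasma cells, 225 against 527 in Foxp3+ T cells, 251 against 579 in cycling T cells, 197 against 544 in ILC2-like cells and 689 against 1565 in macrophages. Without the filter on low counts the calls numbered 116 in cycling B, 196 in plasma, 874 in αβT, 989 in Foxp3+ T, 924 in ILC2-like cells and 354 in mature DCs. Other counts beyond 1.5 times were 1294 in cycling T cells and 167 in mature DCs with no upper limit on genes, 16 in cycling B and 900 in ILC2-like cells under the stricter gate, 570 in αβT and 256 in ILC2-like cells with cells of both rules as T cells, and 1 in plasma cells at a mitochondrial limit of 15%. Leaving out 1 library gave 14 to 64 calls in cycling B cells, 0 to 87 in plasma, 161 to 969 in αβT cells, 294 to 646 in ILC2-like cells, 866 to 1498 in macrophages and 38 to 327 in mature DCs.

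Without each library in turn, the members whose call or direction moved had these ranges. For Zfp36 the log2 fold change ranged over -0.031 to 0.16 in B cells, 0.25 to 0.54 in ILC2-like cells, -0.16 to 0.11 in αβT cells, -0.078 to 0.23 in cycling T cells, 0.21 to 0.56 in macrophages, 0.49 to 0.71 in mature DCs, -0.0055 to 0.51 in plasma cells. Its difference between types ranged over -0.13 to 0.31 for B cells minus αβT cells, 0.41 to 0.62 for Foxp3+ T cells minus αβT cells, 0.17 to 0.70 for ILC2-like cells minus αβT cells, 0.26 to 0.44 for macrophages minus B cells, 0.31 to 0.57 for macrophages minus αβT cells. For Zfp36l1 the log2 fold change ranged over -0.26 to 0.019 in ILC2-like cells, 0.21 to 0.70 in cycling B cells, 0.31 to 0.54 in cycling T cells, -0.54 to -0.30 in macrophages. Its difference between types ranged over 0.23 to 0.32 for Foxp3+ T cells minus αβT cells, -0.41 to 0.024 for ILC2-like cells minus αβT cells, -0.54 to -0.44 for macrophages minus αβT cells. For Zfp36l2 the log2 fold change ranged over -1.41 to -0.75 in mature DCs, -3.20 to -2.44 in plasma cells. Its difference between types ranged over -0.44 to -0.20 for Foxp3+ T cells minus αβT cells, 0.30 to 0.40 for ILC2-like cells minus αβT cells.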
